A study of Mus musculus with 33 samples.

Results

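The adrenergic receptors are the cell-surface proteins through which noradrenaline, released in the cortex by fibres of the locus coeruleus, and adrenaline act on neurons and glia. They form 3 branches: the alpha-1 receptors couple mainly to Gq proteins and phospholipase C, the alpha-2 receptors to Gi proteins that lower cyclic AMP, and the beta receptors to Gs proteins that raise it. In frontal cortex this system is known for its part in arousal, attention and working memory. The 6 genes described here, Adra1a, Adra1b, Adra1d, Adra2a, Adra2c and Adrb1, were chosen by symbol, with no measured value in the rule, and they are 6 of 23366 genes listed in each of 2 deposited count tables, 1 for each sex. All 6 passed the filter on low counts in both tables.

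The libraries came from frontal cortex of C57BL/6 offspring about 1 month old. Dams were exposed to filtered air (Control), to aerosol of an e-cigarette liquid holding 13 to 16 mg/mL of nicotine (ExposedNic), or to aerosol of a liquid with no nicotine (ExposednoNic), first in pregnancy and then together with their pups during lactation. There were 6 air, 5 nicotine and 5 no nicotine libraries from females, and 6, 6 and 5 from males. By the study's methods only 1 pup was used from a litter, and both exposures are set against the same air libraries of their sex.

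The reads counted to genes in a library numbered from 17842235 to 27507707. Each sex was sequenced as a separate run and normalized separately, so sex and run cannot be told apart. The library labelled male nicotine 21 held Xist, an RNA made from the inactive X chromosome, at 219 CPM (read counts scaled to a common library size) and Y-linked genes at 0.047 CPM, which is the pattern of the female libraries. It stayed in the group of its label, and the male nicotine change of each receptor is also given without it. Markers of cortical excitatory neurons, among them Slc17a7 and Tbr1, were present in every library. Their summed level was however lower in every exposed library than in any air library of the same sex, and the values are given after the receptor results.

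The promoters of 4 of the 6 genes are listed in RefSeq on the GRCm38.p6 build, as 250 bases before and 50 bases after the start. The 3 below are shown because Adra1b and Adrb1 fell in both sexes after the nicotine-free aerosol while no comparison called Adra2a. Capitals mark the GC box GGGCGG, the E-box CANNTG and the cyclic AMP response element core TGACG, each searched on both strands, so that CCGCCC is a GC box read on the other strand. Overlapping matches were allowed. Of 32851 promoters of the same length, 35.7% hold the GC box, 72.3% the E-box and 20.8% the TGACG core.
Adra1b, chr11:43836440-43836739, minus strand: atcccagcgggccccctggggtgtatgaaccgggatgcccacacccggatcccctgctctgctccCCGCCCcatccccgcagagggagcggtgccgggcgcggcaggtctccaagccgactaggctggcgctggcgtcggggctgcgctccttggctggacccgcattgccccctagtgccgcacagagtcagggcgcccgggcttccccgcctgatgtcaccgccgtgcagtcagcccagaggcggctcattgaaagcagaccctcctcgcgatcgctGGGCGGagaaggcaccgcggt
Adrb1, chr19:56721867-56722166, plus strand: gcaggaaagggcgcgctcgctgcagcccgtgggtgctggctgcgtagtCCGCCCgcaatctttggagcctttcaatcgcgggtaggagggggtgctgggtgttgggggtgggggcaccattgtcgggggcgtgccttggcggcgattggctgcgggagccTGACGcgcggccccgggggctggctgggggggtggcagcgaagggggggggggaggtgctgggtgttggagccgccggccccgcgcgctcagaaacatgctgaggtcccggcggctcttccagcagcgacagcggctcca
Adra2a, chr19:54045009-54045308, plus strand: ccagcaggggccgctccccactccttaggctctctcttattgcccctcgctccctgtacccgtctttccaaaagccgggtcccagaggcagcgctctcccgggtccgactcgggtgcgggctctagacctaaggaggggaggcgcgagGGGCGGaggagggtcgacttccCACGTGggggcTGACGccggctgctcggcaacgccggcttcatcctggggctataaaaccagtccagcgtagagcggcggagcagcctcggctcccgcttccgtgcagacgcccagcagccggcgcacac
The Adra1b window holds 2 GC boxes and neither other motif, and its GC content is 71.3%. The Adrb1 window has 1 GC box and 1 TGACG core at 72.3% GC. Adra2a has 1 GC box, 1 E-box and 1 TGACG core at 68.7% GC, so the GC box is common to the pair that fell and to the gene that was not called. A second start listed for Adra1b, at 42.3% GC, has none of the motifs, and the Adra2c window has 4 E-boxes alone at 51.3% GC.

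To compare the receptors with each other, normalized CPM were divided by the exonic length of the gene in kilobases. In female air libraries the mean levels per kb were 16.0 CPM for Adra1d, 15.6 for Adra2c, 14.1 for Adrb1, 10 for Adra2a, 8.14 for Adra1b and 1.2 for Adra1a. Adra1d, Adra2c and Adrb1 overlapped in range, as did Adra2a and Adra1b, whereas Adra2a lay wholly below Adrb1 and Adra1a wholly below Adra1b. In male air libraries the order was Adra2c at 16.1 CPM per kb, Adrb1 at 11.8, Adra2a at 11.6, Adra1d at 9.28, Adra1b at 6.73 and Adra1a at 1.33, and there all neighbours but the last pair overlapped. Adra1d thus stood at the top in females and below 3 other receptors in males, with ranges of 9.39 to 23.6 and 5.87 to 11.7 CPM per kb. Levels of the sexes were not tested against each other, because they come from separate runs. Outside the 6 genes, Adrb3 was at 0.669 and 0.591 CPM per kb in female and male air libraries, and Adra2b at 0.518 and 0.689.

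**Figure D1:**
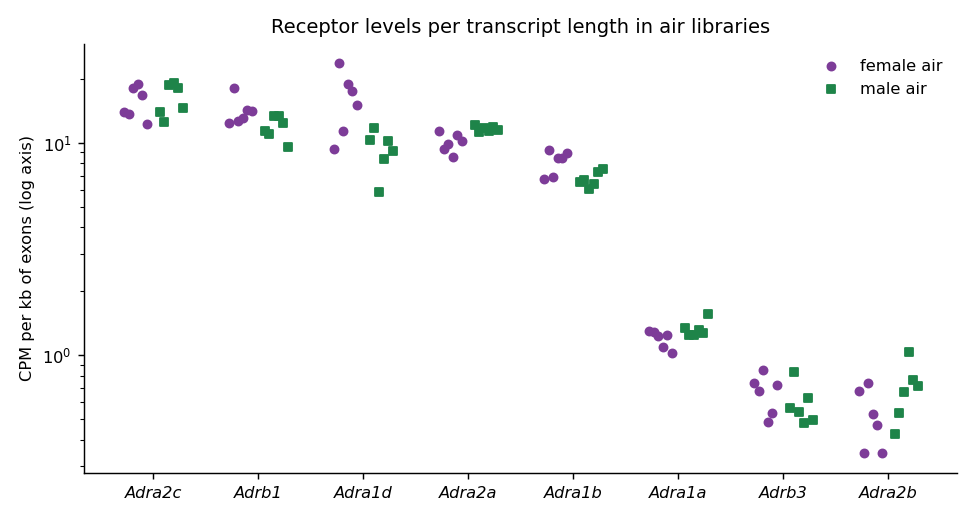
Level of the 6 receptors and of Adrb3 and Adra2b in CPM per kb of exons, on a log axis, in the 6 female air (circles) and 6 male air (squares) libraries, 1 point for each library. The 5 genes on the left lie above 5 CPM per kb in every library shown and the other 3 lie below 2.

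Receptor expression was then compared with air within each sex, with edgeR's quasi-likelihood test and Benjamini-Hochberg adjustment over all genes tested, a gene being called at an adjusted p below 0.01. After the aerosol without nicotine, Adra1d, Adra1b and Adrb1 fell in females and the same 3 genes fell in males. Called genes were thus 3 of 6 in each sex, where 12.1% of all 15156 genes tested were called in females (7.03% lower) and 13.6% of 15291 in males (7.46% lower). After the aerosol with nicotine, 1 of 6 fell in females, Adra1d, against 4.3% of all genes (2.32% lower), and none of 6 passed in males, where 0.0% of all genes did. No receptor of the 6 rose in any comparison with air at that threshold. Both exposures of a sex share its air libraries, so their results are not independent of each other.

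**Figure D2:**
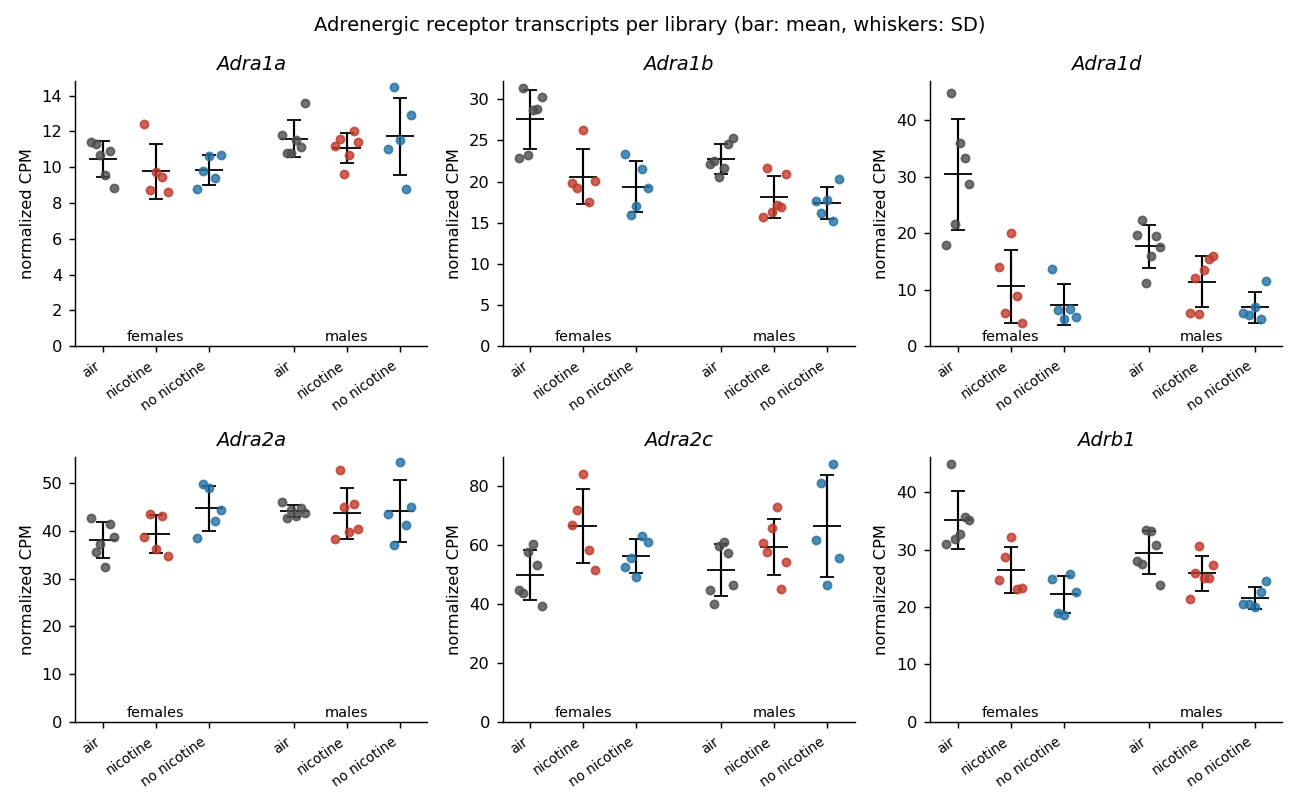
Normalized CPM of each of the 6 receptors in every library (points), by sex and treatment, with the group mean (bar) and SD (whiskers), all axes starting at 0. The no nicotine points of Adra1d lie below 14 CPM in both sexes, while female air points reach 44.9 CPM.

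Adra1d, which encodes the alpha-1D receptor, had the most negative fold change of the 6. The gene lies at chr2:131371586-131388021 on the minus strand of mm9. It overlaps Gm14285, a non-coding gene on the opposite strand, and because the strand setting of the counting is not given in the sources used here, reads of the pair cannot be told apart. In female air libraries Adra1d ran from 17.9 to 44.9 CPM with a median of 31. Female no nicotine libraries had 4.88, 5.08, 6.48, 6.58 and 13.6 CPM. All 5 lay below all 6 air libraries, as did the no nicotine values of 6.27% of all genes tested. The log2 fold change was -2.05 (SE 0.362, adjusted p = 0.00124) under edgeR. Means were 30.4 ± 9.88 CPM in air (SD, n = 6) and 7.32 ± 3.58 CPM without nicotine (SD, n = 5). It was called in all 16 fits that each left out 1 female library.

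Female nicotine libraries had 4.12, 5.87, 8.82, 14.0 and 20 CPM of Adra1d, with a mean of 10.6 ± 6.48 CPM (SD, n = 5). Of these, 4 lay below all air libraries and the highest overlapped with them. The log2 fold change was -1.53 (SE 0.35), and edgeR's adjusted p of 0.00983 lay just inside the threshold. This call held in only 3 of 16 fits that left out 1 library, those without air 1 (adjusted p = 0.00723), nicotine 3 (adjusted p = 0.00236) or no nicotine 1 (adjusted p = 0.00459). In the other 13 fits, which left out each of the remaining libraries, the log2 fold change was still below 0 and edgeR's adjusted p reached 0.0318. Over 10 other settings it ran from 0.00214 to 0.449.

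In males, Adra1d was at 11.2 to 22.3 CPM in air libraries, with a median of 18.5. Male no nicotine libraries had 4.76, 5.43, 5.81, 6.85 and 11.5 CPM, of which 4 lay below all air libraries. The fitted log2 fold change was -1.37 (SE 0.273, edgeR adjusted p = 0.00138), where air averaged 17.6 ± 3.85 CPM (SD, n = 6) and no nicotine libraries 6.86 ± 2.68 CPM (SD, n = 5). This fall was called in all 17 fits that left out 1 male library. Male nicotine libraries ran from 5.74 to 16.0 CPM with a median of 12.7, between the medians of the other groups. Nicotine 15 and 17 were at 5.92 and 5.74 CPM and the other 4 were between 12.1 and 16.0 CPM. Their log2 fold change against air of -0.62 (SE 0.248) had an adjusted p of 0.253 under edgeR, and without the library labelled male nicotine 21 it was -0.72 with an adjusted p of 0.234.

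Adra1b, the alpha-1B receptor gene at chr11:43588108-43714712 on the minus strand, moved less. Female air libraries had 22.9 to 31.4 CPM with a median of 28.8, and female no nicotine libraries had 15.9, 17, 19.2, 21.5 and 23.3 CPM. The groups overlapped by 1 library, no nicotine 1. On the log2 scale the difference from air was -0.50 (SE 0.117, edgeR adjusted p = 0.00538), and it was called in 9 of 16 fits that left out 1 library. It was lost without air 2, 4, 5 or 6, or without no nicotine 2, 3 or 5, with an adjusted p of up to 0.0197. Female nicotine libraries had 17.5, 19.2, 19.8, 20.1 and 26.3 CPM, a log2 fold change of -0.42 (SE 0.117) with an adjusted p of 0.0257 under edgeR. Without nicotine 3, the highest of them, the value was -0.53 and the adjusted p was 0.00496, past the threshold.

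In males Adra1b was at 20.5 to 25.3 CPM in air libraries, with a median of 22.3, and at 15.2, 16.2, 17.6, 17.7 and 20.3 CPM in no nicotine libraries. All 5 of these lay below all 6 air libraries, as in 6.93% of all genes tested. Against air, the log2 fold change was -0.39 (SE 0.0894, edgeR adjusted p = 0.004). Leaving out air 38, air 39, no nicotine 3 or no nicotine 5 took the call away, with adjusted p from 0.0102 to 0.0128, and it held in the other 13 fits. Male nicotine libraries ran from 15.7 to 21.7 CPM with a median of 17.1, and the log2 fold change of -0.33 (SE 0.0852) had an adjusted p of 0.0885 under edgeR. Without male nicotine 21 it was -0.31 with an adjusted p of 0.166.

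Adra1a, the alpha-1A receptor gene at chr14:67254088-67390005 on the plus strand, was the least abundant of the 6 per kb in air and was not called in any comparison. Its group means lay between 9.78 and 11.7 CPM. The log2 fold changes against air were -0.09 (SE 0.0953) and -0.08 (SE 0.0947) in females given nicotine and no nicotine, and -0.06 (SE 0.0967) and 0.02 (SE 0.1) in males. Without male nicotine 21 the third of these was -0.09. The approximate 95% intervals of the 4 differences lay between -0.28 and 0.21. Of 6943 windows of 50 bases along its transcripts, 9 also occur in other genes, against 1 of 3378 for Adra1b and 0 for the other 4 genes.

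The share of Adra1d within the alpha-1 branch was lower after the aerosol without nicotine, and less clearly so with nicotine. Per kb, Adra1d made up 53.8 to 69.1% of the 3 alpha-1 receptors in female air libraries, with a median of 62.3%, and 27.9 to 47.4% in female no nicotine libraries, with a median of 31.7%. In males the share was 44.5 to 59.8% in air, median 53.3%, and 30.7 to 44.7% in no nicotine libraries, median 32.1%. The female ranges did not overlap, and the male ranges met only at 44.5 to 44.7%. Nicotine libraries spread from 23.9 to 54.3% in females, median 42.6%, and from 33.8 to 56.0% in males, median 48.9%, and both overlapped with air. Without nicotine Adra1b had the higher median share, 57.2% in female and 51.6% in male no nicotine libraries. Adra1d was slightly the higher in female no nicotine 1 (7.14 against 6.9 CPM per kb) and male no nicotine 7 (6.03 against 5.99). In female nicotine libraries the median share of Adra1b, 47.4%, was also above that of Adra1d. These shares follow from the same counts as the fold changes and were not tested.

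**Figure D3:**
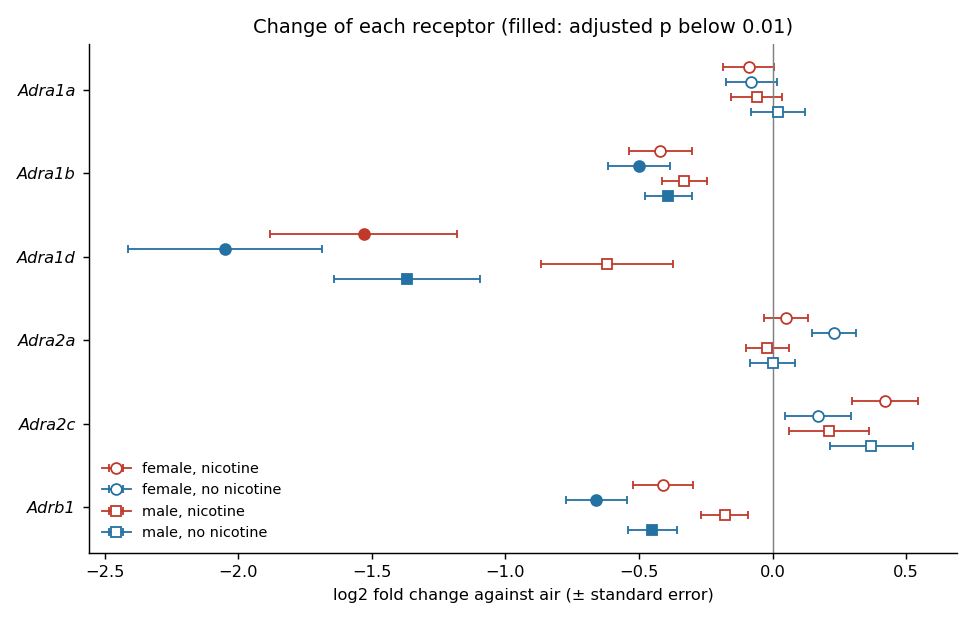
Log2 fold change against air (point) with its standard error (whisker) for each receptor, in females (circles) and males (squares), nicotine in red and no nicotine in blue. Filled points passed an adjusted p of 0.01: Adra1d in 3 comparisons, Adra1b and Adrb1 in the 2 without nicotine.

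Neither Adra2a nor Adra2c was called in any comparison. Adra2a, which encodes the alpha-2A receptor found both on noradrenergic terminals and on cortical neurons, lies on a single exon at chr19:54119672-54123472. Its log2 fold change was 0.05 (SE 0.0834) in females given nicotine, -0.02 (SE 0.0809) in males given nicotine, or -0.03 without male nicotine 21, and 0.00 (SE 0.0845) in males given no nicotine. Female no nicotine libraries had 38.5, 42.1, 44.4, 49.1 and 49.8 CPM against 32.5 to 42.8 CPM in air, median 38.1. That log2 fold change of 0.23 (SE 0.0828) had an adjusted p of 0.0472 under edgeR and was not called. Male air libraries were close together, at 42.7 to 46.1 CPM, and male no nicotine libraries spread from 37 to 54.5 CPM around the same mean.

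Adra2c, the alpha-2C receptor gene on a single exon at chr5:35621215-35624410, was above its air mean in all 4 exposed groups, with no call. Female nicotine libraries had 51.4, 58.5, 67.0, 72.1 and 84.1 CPM against 39.2 to 60.5 CPM in air, median 49.1. The log2 fold change was 0.42 (SE 0.124, edgeR adjusted p = 0.0364). In females given no nicotine it was 0.17 (SE 0.124), in males given nicotine 0.21 (SE 0.149), or 0.28 without male nicotine 21, and in males given no nicotine 0.37 (SE 0.155, edgeR adjusted p = 0.0913). Male no nicotine libraries had 46.3, 55.6, 61.8, 81.2 and 87.6 CPM, the widest spread of any Adra2c group. Of the 2 alpha-2 genes Adra2c was the more abundant per kb in every group, by a median ratio of 1.39 to 1.97.

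Adrb1, the beta-1 receptor gene, lies on a single exon at chr19:56796862-56799352. Female air libraries had 31 to 44.9 CPM with a median of 33.9, and female no nicotine libraries had 18.7, 19, 22.7, 24.9 and 25.7 CPM. No library of these groups overlapped, as in 6.27% of all genes tested on the lower side. The log2 fold change was -0.66 (SE 0.114, edgeR adjusted p = 0.00111) and it was called in 16 of 16 fits that left out 1 library. Female nicotine libraries had 23.1, 23.3, 24.8, 28.7 and 32.3 CPM, giving -0.41 (SE 0.113, edgeR adjusted p = 0.0245). Among the fits that left out 1 library, this value passed only without nicotine 3 (edgeR adjusted p = 0.00773). Over 10 other settings, DESeq2 and limma-voom among them, the adjusted p ran from 0.00667 to 0.751.

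In males, Adrb1 was at 23.8 to 33.4 CPM in air, median 29.5, and at 20.1, 20.5, 20.5, 22.6 and 24.6 CPM without nicotine. The highest no nicotine library lay above the lowest air library and the other 4 lay below all of them. The log2 fold change was -0.45 (SE 0.0918, edgeR adjusted p = 0.00174), called in 17 of 17 fits that left out 1 library. Male nicotine libraries ran from 21.4 to 30.7 CPM, median 25.5, with a log2 fold change of -0.18 (SE 0.0867) and an adjusted p of 0.342 under edgeR. Without male nicotine 21 the value was -0.17 with an adjusted p of 0.447. Of the 6 receptors in males given nicotine, 3 (Adra1b, Adra1d and Adrb1) had an unadjusted edgeR p below 0.05, against 14.4% of all genes tested, and DESeq2 and limma-voom called 0 of 6 as well.

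The 2 exposures were compared directly to see whether nicotine in the liquid changed the receptors. In females 0 of 6 receptors and 0.0% of all genes were called by edgeR, and 1 of 6, Adra2a, had an unadjusted p below 0.05, against 8.36% of all genes. The female Adra1d difference, nicotine minus no nicotine, was 0.53 on the log2 scale (SE 0.389). In males 0 of 6 were called, against 0.249% of all genes, and 2 of 6, Adra1d and Adrb1, had an unadjusted p below 0.05, against 20.1% of all genes. The male Adra1d difference was 0.75 (SE 0.277, edgeR adjusted p = 0.134) and that of Adrb1 was 0.26 (SE 0.0925, edgeR adjusted p = 0.117). Without male nicotine 21 these became 0.65 and 0.28. DESeq2 and limma-voom called none of the 6 in either sex as well.

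Whether the response of the 2 sexes differed was asked with an interaction term over all 33 libraries and 15104 genes. None of 6 receptors was called for either exposure, as for 0.0% of all genes, and none of 6 had an unadjusted p below 0.05, against 6.48% of genes for nicotine and 4.92% for no nicotine. The difference was widest for Adra1d, where the male change minus the female change was 0.90 (SE 0.446, edgeR adjusted p = 0.77) for nicotine and 0.68 (SE 0.474, edgeR adjusted p = 0.951) for no nicotine. Without male nicotine 21 the first was 0.80. For the other 5 receptors it lay between -0.24 and 0.22 in both exposures.

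Cell type markers moved with the same groups. The summed level of 9 cortical excitatory neuron markers was 2682.7 to 3462.6 CPM in female air libraries, 1791.0 to 2543.3 with nicotine and 1063.8 to 2599.0 without. In males it was 2552.9 to 3054.2, 1782.3 to 2502.2 and 890.6 to 1869.3 CPM. All 9 genes lay below 0 on the log2 scale in each comparison with air, and edgeR called 8 of them lower in females and 7 in males given no nicotine, and 0 in either nicotine group. All 6 markers of basal forebrain cholinergic neurons were called higher in each comparison except male nicotine, where 0 were. Their sum was 19.6 to 78.6 CPM in female air libraries, 82.6 to 191.9 with nicotine and 107.1 to 283.0 without. In males it was 34.2 to 80.2, 92.9 to 141.3 and 110.0 to 232.9 CPM. Oligodendrocyte lineage markers were called higher for 4 of 6 genes in the same comparisons. Of 8 striatal projection neuron markers, 2 (Ppp1r1b and Rgs9) were called higher in females given nicotine and 1 (Rgs9) in males given no nicotine. No marker of these lists was at 0 in all libraries of a group. Among the other lists, 0 markers of astrocytes (5), microglia (5), endothelium (4) and mural cells (4) were called by edgeR in any comparison with air, and 1 of 4 thalamic markers, Tcf7l2, was higher in the 3 comparisons other than male nicotine. Of 5 interneuron markers, Gad2 was higher and Vip lower in those 3 comparisons and Gad1 higher in females given no nicotine.

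When the mean log2 level of the cortical markers was added to the fit as a covariate, 0 of 6 receptors were called in any comparison. The Adra1d log2 fold change without nicotine became -0.18 in females (edgeR adjusted p = 0.897) and -0.26 in males (edgeR adjusted p = 0.751), and that of Adrb1 became -0.23 and -0.24. Adra1b became 0.01 in females and -0.12 in males. Over all genes this fit called 0 in females and 16 in males given no nicotine, and because the marker level itself differed between treatments, the 2 cannot be told apart in this fit. In bulk tissue, fewer cells of a type and less RNA per cell cannot be told apart.

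**Figure D4:**
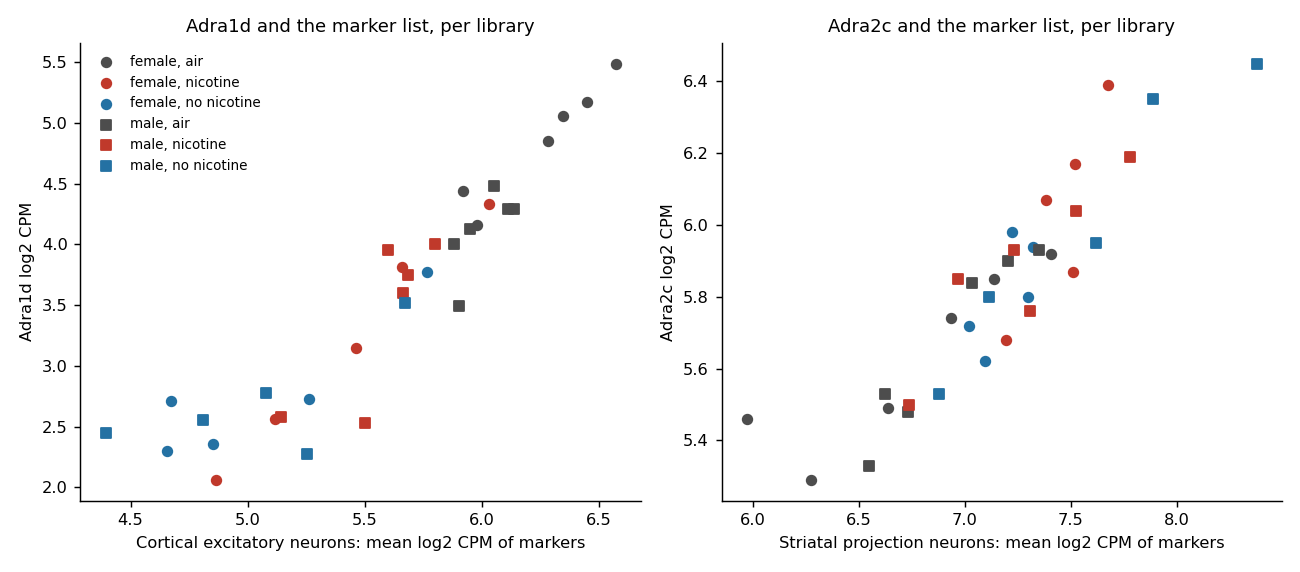
Left, log2 CPM of Adra1d against the mean log2 CPM of 9 cortical excitatory neuron markers, and right, log2 CPM of Adra2c against that of 8 striatal projection neuron markers, 1 point for each of the 33 libraries (circles female, squares male, colours treatment). Libraries with higher cortical markers have higher Adra1d, and libraries with higher striatal markers have higher Adra2c.

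The receptors also varied among libraries of the same group. Deviations of log2 CPM from the mean of a library's own sex and treatment were correlated over the 33 libraries, as a description with no test. Libraries of 1 sex share a run, they differ in depth, and how alike their dissections were was not measured. Of 15 pairs of receptors, Adra1b and Adra1d were most alike (Pearson r 0.687, Spearman rho 0.696, and r 0.585 without the 2 most extreme libraries), followed by Adra1b and Adrb1 (r 0.509, rho 0.488). Adra2a and Adra2c were the least alike (r -0.386, rho -0.407).

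Each receptor was then set by the same measure against the genes other than the 6 receptors in a set of 13717. The closest to Adra1d were Medag (r 0.918, rho 0.894), Tnnc1 (r 0.906, rho 0.931), which encodes a troponin C, and Gfra2 (r 0.901, rho 0.926), a co-receptor for neurturin. Their log2 fold changes without nicotine were -1.53, -2.15 and -0.85 in females, beside -2.05 for Adra1d, and -1.02, -0.81 and -0.44 in males, beside -1.37. Adra2c lay closest to Adcy5 (r 0.926, rho 0.932), an adenylyl cyclase, Pde1b (r 0.909, rho 0.921), a phosphodiesterase, and Ptpn5 (r 0.907, rho 0.902), a tyrosine phosphatase. Adcy5 had log2 fold changes of 0.47 in females given nicotine and 0.45 in males given no nicotine, beside 0.42 and 0.37 for Adra2c.

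Among the genes closest to Adra1b were Prkar1b (r 0.875, rho 0.858) and Tagln3 (r 0.867, rho 0.876). Adrb1 had looser neighbours, Zdhhc8 (r 0.787, rho 0.776), Lphn1 (r 0.781, rho 0.789) and Cyfip2 (r 0.774, rho 0.790), and so did Adra2a, with Syt9 (r 0.778, rho 0.837), Chl1 (r 0.757, rho 0.802) and Zfp354c (r 0.752, rho 0.732). For Adra1a the closest were Plxna1, Ankrd13d and Zbtb7c at r from 0.671 to 0.687 and rho from 0.531 to 0.617, which fell to r from 0.468 to 0.552 without its 2 most extreme libraries.

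The rest of the noradrenergic pathway was read from a list of 62 genes, of which 61 passed the filter. Of these, edgeR called 5 higher and 16 lower in females given no nicotine, and 2 higher and 13 lower in males given no nicotine. That is 34.4% and 24.6% of the list, against 12.1% and 13.6% of all genes. In females given nicotine 1 was higher and 9 lower, or 16.4% against 4.3%. The female counts rested on few libraries. Without nicotine, the 21 called became 13 without air 5 or 6, and 9, 10 or 11 without no nicotine 2, 3 or 5. With nicotine, the 10 called became 6 without air 6 or nicotine 6, and 5 without nicotine 1 or 2. In males given nicotine 0 of 61 were called, with 22 (36.1%) at an unadjusted p below 0.05, against 14.4% of all genes, and DESeq2 called 3. The median log2 fold change of the list was between -0.09 and -0.05 in the 4 comparisons, and that of all genes between 0.00 and 0.02.

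Among the low receptors, Adra2b was 0.80 higher on the log2 scale in females given no nicotine (SE 0.206, edgeR adjusted p = 0.00944), rising from 2.08 to 3.64 CPM, and Adrb3, the beta-3 receptor, fell in females given nicotine, at a log2 fold change of -0.96 (SE 0.201, edgeR adjusted p = 0.00607). Adrb3 rested on 12 to 60 reads in a female library.

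Of the synthesis and transport genes, Ddc, the aromatic amino acid decarboxylase of catecholamine synthesis, was called higher in 3 comparisons. Its log2 fold change was 0.70 (SE 0.131) in females given nicotine, 0.79 (SE 0.13) in females given no nicotine and 0.83 (SE 0.111) in males given no nicotine. Noradrenaline itself was not measured. Every exposed library in those groups lay above all air libraries of its sex, as in 3.07%, 4.4% and 5.48% of all genes tested. In male nicotine libraries the value was 0.41 (edgeR adjusted p = 0.0897). Th, the rate-limiting enzyme, was at 0.65 to 0.73 in the same 3 comparisons but was not called (edgeR adjusted p from 0.117 to 0.272). Dbh, which makes noradrenaline and marks noradrenergic neurons, averaged 1.07 to 1.39 CPM in all groups and was not called. Slc6a2, the noradrenaline transporter, averaged under 0.1 CPM in every group and was not tested. Maoa, a monoamine oxidase, rose in females given no nicotine, by 0.22 on the log2 scale (SE 0.0496).

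Downstream of the alpha-2 receptors, the Gi arm and its channels had the most calls. Lower were 7 of 10 genes in females given no nicotine, 5 in females given nicotine and 5 in males given no nicotine. The 3 G protein-gated potassium channel genes were among them in each case. In that order the counts are 70%, 50% and 50% of the arm, against 7.03%, 2.32% and 7.46% of all genes called lower. Kcnj6 fell from 24.1 to 12.7 CPM in females and from 24.3 to 12.3 CPM in males given no nicotine, log2 fold changes of -0.92 (SE 0.15) and -0.98 (SE 0.111). Kcnj3 was at -0.79 and -0.81 and Kcnj9 at -0.74 and -0.59. For all 3 genes every no nicotine library lay below every air library in both sexes, as in 6.27% of all genes in females and 6.93% in males. Other genes called in this arm included Gnai1, Gnao1 and Gnaz in females given no nicotine, and Gnaz in the other 2 comparisons, named after their values were seen. Adra2a and Adra2c themselves were not called, as given above.

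In the Gq arm, which the alpha-1 receptors use, 4 of 11 genes (36.4%) were lower in females and 3 (27.3%) in males given no nicotine. Over all genes 7.03% and 7.46% were called lower there. Gnaq, the Gq alpha subunit, changed by -0.22 (SE 0.0396) in females and -0.24 (SE 0.0364) in males. Prkca, a protein kinase C, was at -0.48 in females and -0.49 in males. Prkcb, named after its value was seen, was also lower in females, at -0.52. Gnaq was also the 1 gene of this arm called in females given nicotine, at -0.23.

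In the Gs arm, which Adrb1 uses, 4 of 21 genes were lower and 2 higher in females, and 3 lower and 1 higher in males given no nicotine. These are 28.6% and 19% of the arm, against 12.1% and 13.6% of all genes, so the male share was near that of all genes. The calcium-stimulated adenylyl cyclase Adcy1 was at -1.01 (SE 0.206) in females and -0.67 (SE 0.121) in males, Adcy9 at -0.54 and -0.38, and the protein kinase A regulatory subunit Prkar1b at -0.34 and -0.36. The genes outside the naming rule were Adcy2 at -0.27, Adcy7 at 0.65 and Prkaca at 0.19 in females and Prkaca at 0.15 in males. Of the 8 genes of receptor desensitisation, 1 was called in females given no nicotine, or 12.5% against 12.1% of all genes. It was Rgs4, which shortens G protein signals, at -0.82 (SE 0.175). In males given no nicotine it was at -0.25 (edgeR adjusted p = 0.312). There 2 of 8 were called, or 25% against 13.6% of all genes: Arrb1, a beta-arrestin, at -0.18 and Adrbk1, a receptor kinase, at -0.24. With the cortical marker covariate 0 genes of the list were called in any of the 4 comparisons with air. How far the markers account for these values was not tested further.

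**Figure D5:**
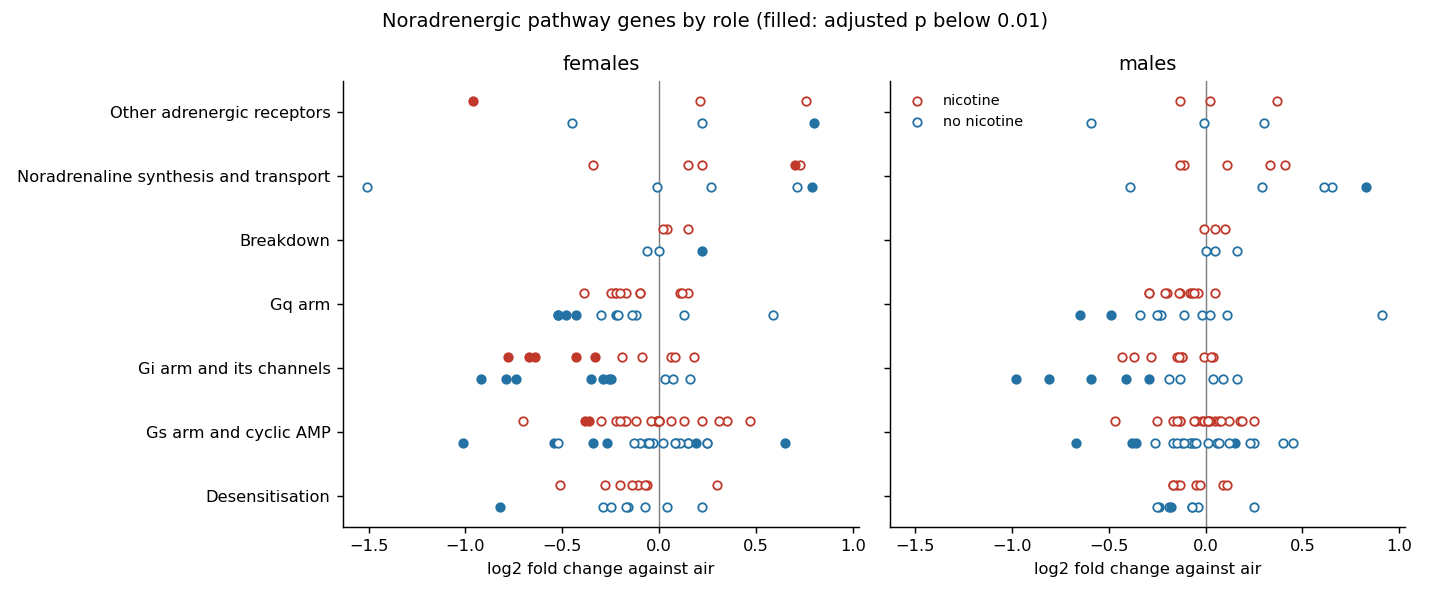
Log2 fold change against air of the noradrenergic pathway genes by role, females left and males right, nicotine in red and no nicotine in blue, 1 point for each gene, filled where the adjusted p was below 0.01. Filled points in the Gi arm lie below 0 in both panels, and no male nicotine point is filled.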

How the data were processed

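RNA from frontal cortex was sequenced as single reads of 50 bases from TruSeq RNA libraries. Per the labels and the study's methods, the authors aligned reads to mm9 with Bowtie, counted them to genes with HTSeq and deposited raw count tables, 1 for each sex. Tables of normalized counts were deposited too and were not used. All 33 samples were matched to count columns by title, and 1 further column of the female table that matched no sample was left out. Rows with a symbol shared by several genes (4, at most 0.0202% of the counts of a library) were dropped. Library totals were 17842235 to 27507707 counts.

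Groups came from the labels. The counts were fitted with edgeR 4.0.16 (R 4.3.3, limma 3.58.1), with TMM normalization and 3 groups of a sex in 1 quasi-likelihood fit. Genes needed a summed CPM of 5 or more, and a call needed a Benjamini-Hochberg adjusted p below 0.01, the threshold of the study. The log2 CPM of single libraries and the marker scores used a prior count of 1, and the fold changes edgeR's default. The sexes were compared by an interaction term. The fit was tested on simulated data. Alternatives were DESeq2 1.42.0, limma-voom, other normalizations, filters and thresholds, a marker covariate, a replicate block and leaving out each library. Exon lengths came from the mm9 annotation GENCODE vM1, promoters from RefSeq. Named pathway genes were, for each role, up to 3 with the smallest p among those called against air. The receptors and gene lists were chosen with earlier results of these data known. Pups of separate litters are the replicates. Some genes that these rules select are not reported here.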

Additional observations from a re-analysis of the deposited data

Results flagged for a closer look

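Each of the 6 receptors was checked in each of 6 groups for a library whose gap to the nearest other exceeded Dixon's 95% critical value. Chance flags about 1 in 20 groups, and 4 of 36 were flagged. Adra1d was 13.6 CPM in female no nicotine 1, with the other 4 libraries of the group at 4.88 to 6.58 CPM. Adrb1 was 44.9 CPM in female air 2, with the others at 31 to 35.7 CPM. Adra1a was 12.4 CPM in female nicotine 1, with the others at 8.61 to 9.71 CPM, and 13.6 CPM in male air 39, with the others at 10.8 to 11.8 CPM. The calls of Adra1d and Adrb1 in females given no nicotine held without each of these libraries. The causes were not tested.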

How the results depend on the processing

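Counts of receptors called without nicotine stayed at 3 of 6 in both sexes under DESeq2, limma-voom, other normalizations and filters, and the fit of only the groups compared. At an adjusted p of 0.05 they were 4 in females, with Adra2a higher, and 3 in males. With the cortical marker covariate they were 0 in both sexes. Leaving out 1 library gave 2 to 3 in each sex. The count in females given nicotine, 1 in the report, was least settled: 4 at an adjusted p of 0.05, 3 with DESeq2, 2 with limma-voom, 0 with upper quartile normalization, with only the groups compared and with the covariate, and 0 to 3 with 1 library left out. No receptor was called in males given nicotine, between the exposures or between the sexes under any setting run.

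Called pathway genes in females given nicotine, 10 in the report, were 19 at an adjusted p of 0.05, 17 with DESeq2, 0 with the covariate and 5 to 12 with 1 library left out. In females given no nicotine, 21 in the report, they were 0 with the covariate and 9 to 24 with 1 library left out. In males given no nicotine, 15 in the report, they were 24 at an adjusted p of 0.05, 0 with the covariate and 12 to 18 with 1 library left out. In males given nicotine, DESeq2 called 3 and the fit of only the groups compared 1. Between the male exposures, DESeq2 called 4, an adjusted p of 0.05 gave 6, and leaving out 1 library 0 to 2.

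The female titles share replicate numbers. The 14 same-number pairs had correlations of -0.273 to 0.266, with 4 over 0.1. Their median was 0.0146, against -0.00451 for pairs of other numbers. Of 16 libraries, 7 were most like a library of their own number. The number expected by chance was not computed, so these values do not decide whether the numbers pair the samples. With the replicate block in females, receptors called were 0 for nicotine and 2 for no nicotine, pathway genes 1 and 8, and all genes 136 and 736, and the Adra1a difference between exposures turned to 0.01. In males the groups share too few numbers for a paired fit.

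Over all genes, the report's 651 calls for nicotine in females were 1319 with DESeq2, 1013 with limma-voom, 1888 at an adjusted p of 0.05, 1 with the covariate and 217 to 925 with 1 library left out. The 1829 without nicotine in females were 3791 at 0.05, 0 with the covariate and 823 to 2505 with 1 left out. The 2082 in males were 3777, 16 and 1519 to 2174. For nicotine in males 0 became 155 with DESeq2, 58 at 0.05, 17 with only the groups compared and up to 2 with 1 left out. The 38 between male exposures became 454 with DESeq2, 544 at 0.05, 59 with limma-voom, 7 with the covariate, 0 with only the groups compared and 0 to 246 with 1 left out. Upper quartile normalization split the female calls into 370 higher and 243 lower for nicotine (300 and 351 in the report) and 886 and 907 for no nicotine (763 and 1066).

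Directions turned for these values, of which 1 was called in the report. With the covariate, Adra1b in females given no nicotine, called in the report, became 0.011 (edgeR adjusted p = 0.993). The others with the covariate were Adra2a at -0.117 and -0.011 in females given nicotine and no nicotine (0.045 and 0.234 before) and at 0.074 in males given nicotine, Adra1a at -0.119 in males given no nicotine, Adra1b at -0.077 in females and -0.091 in males and Adra1d at -0.147 in females (0.53 in the report) between exposures, and Adra1b at -0.062 between sexes for nicotine. Adra2a in males given no nicotine was -0.004 with DESeq2 and its size factors, and Adra1a between sexes for nicotine was -0.009 with limma-voom. With 1 library left out, Adra1a ran from -0.103 to 0.04 and from -0.168 to 0.01 between exposures in females and males, from -0.074 to 0.103 in males given no nicotine and from -0.02 to 0.12 between sexes for nicotine. Adra1b between female exposures ran from -0.023 to 0.163, and Adra2a in males from -0.078 to 0.016 for nicotine, -0.086 to 0.062 for no nicotine and -0.082 to 0.069 between exposures. The causes were not tested.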
